A study of Mus musculus with 11 samples.

Results

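The genes described here are the 106 rows, of 24197 in the expression table of cultured 4T1 cells, whose level was lower after the drug 4HC, after 4HC with the type I interferon (IFN) receptor blocked, and after recombinant IFNβ. 4T1 is an established mouse mammary carcinoma line. A row was taken when its control level was at least 1 FPKM (reads scaled to the length of the gene and to the depth of the library) and each of the 3 treated groups lay at or below 0.6 times control. Of the 9815 rows with that control level, 166 met all 3 bounds, which is 1.69%. Among them, 60 rows were left out by name: 32 microRNA and 13 small nucleolar RNA (snoRNA) rows, 4 Zfp genes, Srsf11, Prpf39, Rbm39, Atf3, Atf4, Ppp1r15a, Trib3, Per2, Ciart, RN45S and Txnip. The genes were thus selected on their measured ratios to control, which are given below as a description, with no test.

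Vehicle-treated control cells (2 libraries) were collected at 72 h. The 4HC group (3 libraries) was given 4-hydroperoxy-cyclophosphamide, a preactivated form of the alkylating drug cyclophosphamide, at 5 uM for 4 h, and cells were harvested 68 h later. The third group (3 libraries) had the same 4HC exposure with a blocking antibody against the receptor subunit IFNAR1 at 10 ug/mL throughout. The fourth (3 libraries) was given IFNβ at 250 U/mL for 4 h. Its harvest, timed to match the 72 h controls, was 2 h after exposure by the sample labels and at 6 h by the table header. The treatment protocol instead states 68 h for these cells, and the sample labels were followed. By the paper's methods, IFNβ cultures were seeded at a higher density than 4HC cultures. Both were washed and given fresh medium after exposure, so this medium was 2 h old at harvest with IFNβ and 68 h old with 4HC. Each library came from its own culture. The table holds 1 mean FPKM per group and no value for a single library, so no spread between cultures can be given and no p-value is printed. All 3 treated groups are set against the same 2 control libraries, so the 3 ratios of a gene are not independent of each other.

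Libraries held 32.1 to 49.3 M reads, as recovered from the step that a single read makes in olfactory receptor genes. The paper states a lower average depth over all its cell culture libraries, so the depths given here are estimates. They summed to 69.4 M in the control group, 108.6 M in the 4HC group, 118.0 M with antibody added and 125.9 M in the IFNβ group. Of 12 tumour line markers, 11 were at or above 1 FPKM in control and Krt5 was at 0. Of 15 leukocyte markers with a row only Cd68 reached 1 FPKM in control, Ptprc was at 0 there, and none of 12 fibroblast and endothelial markers did. The summed leukocyte marker level was 2.63 FPKM in control cells, 9.98 after 4HC, 9.67 after 4HC plus antibody and 1.36 after IFNβ. The summed fibroblast and endothelial level was 0.609 FPKM in control cells, 4.04 and 4.99 in the 4HC groups and 0.581 after IFNβ, and the tumour line markers summed to 521.5, 1105, 1113 and 678 FPKM. The part of these marker levels in the results below was not tested. All 11 listed antiviral interferon-stimulated genes that were at 1 FPKM or more in control were over 1.67 times control with 4HC and with IFNβ, as were 6 of the 11 with 4HC and antibody.

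Type I IFN binds a receptor made of IFNAR1 and IFNAR2 and acts through STAT transcription factors, which raise antiviral genes. Some transcript levels are known to change quickly with the state of a cell. Examples are short-lived regulators such as Myc and output genes of the circadian clock and of the integrated stress response. Whether this bears on the members was not tested.

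Before the levels, 5 promoters are shown for members of different roles that carry one of the short motifs searched. Each line gives the 250 bases before the start of the gene, 5′ to 3′ on the gene's strand, from RefSeq on GRCm38.p6, with motif letters in capitals. Gm11974 (Snhg15; chr11:6528761-6529010, minus strand) and Zranb1 (chr7:132930926-132931175, plus strand) hold the cyclic AMP response element TGACGTCA, Tef (chr15:81802423-81802672, plus strand) the E-box CACGTG with a CCAAT box, Smndc1 (chr19:53390635-53390884, minus strand) the YY1 motif AAGATGGCG, and Eif1 (chr11:100319699-100319948, plus strand) and Zranb1 the CCAAT box of NF-Y, which reads ATTGG where it lies on the other strand.
Gm11974: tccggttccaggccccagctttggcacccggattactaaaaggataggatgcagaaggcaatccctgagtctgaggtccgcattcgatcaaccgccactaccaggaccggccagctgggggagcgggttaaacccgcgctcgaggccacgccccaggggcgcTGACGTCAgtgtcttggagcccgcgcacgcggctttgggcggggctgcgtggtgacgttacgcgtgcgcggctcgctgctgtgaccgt
Zranb1: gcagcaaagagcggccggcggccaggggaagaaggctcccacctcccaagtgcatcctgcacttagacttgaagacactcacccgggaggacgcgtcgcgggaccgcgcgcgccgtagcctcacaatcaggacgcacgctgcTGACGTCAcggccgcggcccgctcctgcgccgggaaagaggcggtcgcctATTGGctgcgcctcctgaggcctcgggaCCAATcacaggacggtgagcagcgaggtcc
Tef: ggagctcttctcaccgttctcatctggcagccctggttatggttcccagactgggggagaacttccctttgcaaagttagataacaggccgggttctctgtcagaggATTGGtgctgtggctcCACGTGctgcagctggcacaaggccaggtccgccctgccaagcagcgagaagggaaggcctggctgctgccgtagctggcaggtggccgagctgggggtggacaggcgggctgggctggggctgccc
Smndc1: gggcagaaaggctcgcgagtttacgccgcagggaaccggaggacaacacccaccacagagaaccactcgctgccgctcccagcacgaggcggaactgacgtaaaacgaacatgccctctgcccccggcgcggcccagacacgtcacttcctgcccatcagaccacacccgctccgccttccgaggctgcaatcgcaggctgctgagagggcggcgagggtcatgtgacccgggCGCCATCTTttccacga
Eif1: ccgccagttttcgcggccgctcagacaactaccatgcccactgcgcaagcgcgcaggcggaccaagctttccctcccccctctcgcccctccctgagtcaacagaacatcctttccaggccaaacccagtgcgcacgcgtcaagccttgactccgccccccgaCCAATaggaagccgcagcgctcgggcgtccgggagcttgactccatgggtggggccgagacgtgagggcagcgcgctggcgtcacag
Over 27025 RefSeq promoters of 300 bases, counting both strands, TGACGTCA occurs in 1.88%, CACGTG in 7.24%, AAGATGGCG in 1.49% and CCAAT in 37.9%. In the 7603 of these promoters whose genes were at 1 FPKM or more in control, the shares were 3.64%, 11.1%, 3.97% and 39.1%, and in their 250 bases before the start 3.03%, 9.09%, 1.37% and 36.97%. The motif matches capitalised in these 5 windows do not overlap each other. Promoters were found for 80 of 106 members (75.5%), beside 77.5% of all expressed genes. In the 300 bases of these 80, the shares were 7.5%, 8.75%, 3.75% and 41.25%, from 6, 7, 3 and 33 promoters. In their 250 bases before the start they were 5%, 7.5%, 1.25% and 41.25%, from 4, 6, 1 and 33 promoters. Members without a promoter here are not covered, so the whole set is not described, and no test was made. The 5 windows were picked for carrying a motif, and their matches are descriptions of the letters in the window.

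Across members the median level was 7.65 FPKM in control cells, 3.91 after 4HC, 3.78 after 4HC plus antibody and 3.18 after IFNβ. Median ratios to control were 0.501, 0.455 and 0.451, beside 1.04, 1.02 and 1.00 over all 9815 genes. One by one, the bounds were met by 7.1% of those genes after 4HC, 9.19% after 4HC plus antibody and 8.2% after IFNβ. All 3 ratios were at or below 0.5 in 40 members, and at or below 0.333 in 6, namely Cdsn, Fam171b, 2310014L17Rik, Cyp27b1, Kcnj14 and Tigd3. Control levels ran from 1.002 FPKM for Trnp1 to 566 FPKM for Eif1, with 38 members under 5 FPKM and 34 at 20 FPKM or more. By counting error alone, with 95% exact (Clopper-Pearson) intervals on read numbers estimated from the longest annotated transcript, the upper bound of all 3 ratios was below 1 in all 104 members with a length and at or below 0.6 in 69. Members were selected on these same ratios, so such bounds were largely set by the rule and lend it no separate support. Those intervals leave out the differences between cultures. A lower FPKM is a lower share of the sequenced RNA, and a change in the number of cells or in RNA per cell cannot be told apart here.

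**Figure D1:**
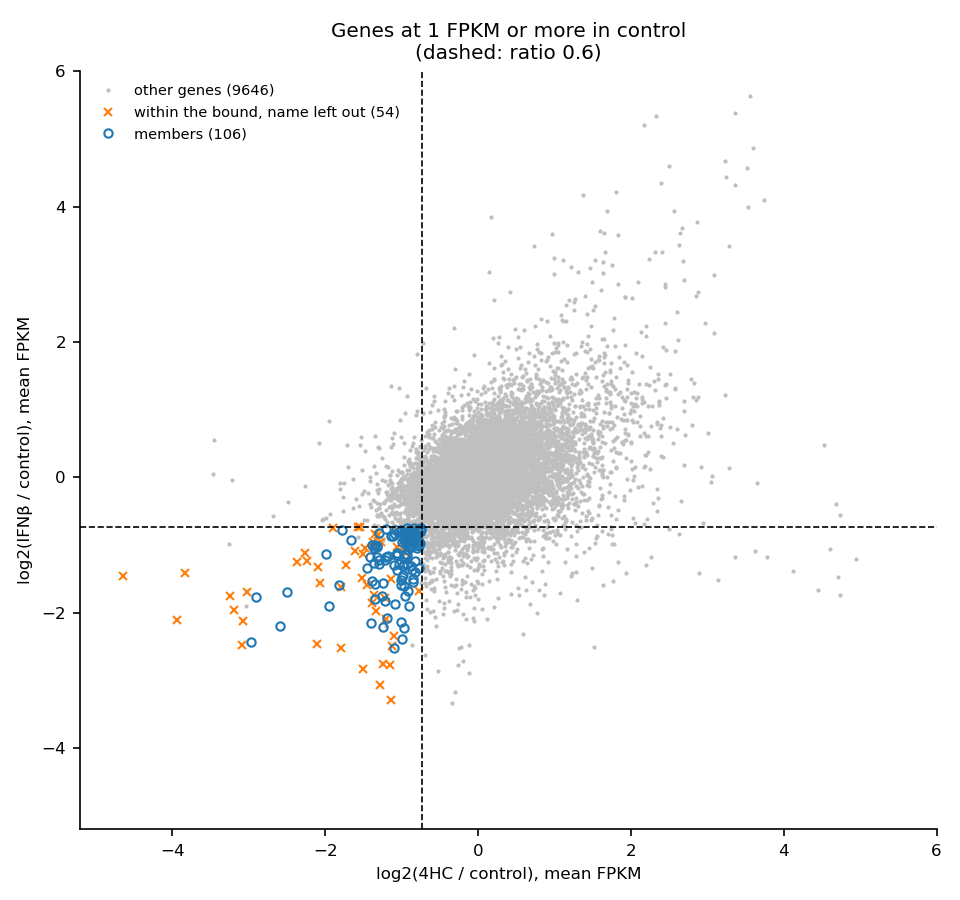
Each point is a gene at 1 FPKM or more in control, with log2 of the 4HC to control ratio of mean FPKM on the x axis and log2 of the IFNβ to control ratio on the y axis. The 106 members (circles) and 54 of the 60 rows left out by name (crosses, those above 0 in every group) lie below both dashed lines at a ratio of 0.6, 9646 other genes are grey, and both axes share the control libraries.

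At the bound itself, the members closest inside were Zxdb, with a largest ratio of 0.597 (IFNβ), Zranb1 at 0.597 (antibody) and Bet1l at 0.596 (IFNβ). The nearest genes outside were Lsm14a at 0.601, Gm15545 at 0.602 and 9930104L06Rik at 0.603.

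Of the 23 gene lists examined, SR proteins and splicing regulators held the most members. It was also the longest list, at 44 genes, and its names were chosen with earlier results known. For reference, 7.1%, 9.19% and 8.2% of all expressed genes lay within the bound after 4HC, 4HC plus antibody and IFNβ. Among 43 expressed genes of this list, 12 were at or below 0.6 times control after 4HC, 13 after 4HC plus antibody and 11 after IFNβ, and 9 met all 3 bounds. Of these 9, 7 are members (Tra2b, Smndc1, Luc7l, Luc7l2, Luc7l3, Ppil4 and Mfap1a), and Srsf11 and Rbm39 were left out by name. Tra2b (chromosome 16, 22245813 to 22266002 in mm9), which encodes a serine/arginine-rich activator of exon inclusion, stood at 78.6 FPKM in control cells, 42.5 after 4HC, 37.5 after 4HC plus antibody and 38.5 after IFNβ. Its ratios to control were 0.541, 0.477 and 0.490, lowest with the antibody. Smndc1 (chromosome 19, 53453703 to 53465063), whose product has a Tudor domain and takes part in spliceosome assembly, stood at 56.4 FPKM in control cells, 22.5 after 4HC, 19.97 after 4HC plus antibody and 27.95 after IFNβ. IFNβ left it highest of the treated groups, 1.24 times its 4HC level. Ppil4 (chromosome 10, 7512691 to 7542361), a cyclophilin with an RNA recognition motif, was the lowest of the group against control at 27.3, 9.96, 9.30 and 10.7 FPKM in the same order of groups.

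The LUC7-like genes encode proteins related to yeast Luc7, a component of the U1 small nuclear ribonucleoprotein that recognises the 5′ splice site, and all 3 mouse genes of this family were members. Luc7l (chromosome 17, 26389854 to 26422451) stood at 19.7 FPKM in control cells, 9.25 after 4HC, 8.78 after 4HC plus antibody and 8.003 after IFNβ. Luc7l2 (chromosome 6, 38501443 to 38557155) stood at 24.9 FPKM in control cells, 12.8 after 4HC, 12.9 after 4HC plus antibody and 13.9 after IFNβ, and Luc7l3 (chromosome 11, 94152452 to 94183225) at 41.2 FPKM in control cells, 24.4 after 4HC, 23.5 after 4HC plus antibody and 20.9 after IFNβ. The order of the treatments was not shared, as IFNβ gave the lowest level for Luc7l and Luc7l3 and the highest of the treated levels for Luc7l2. Mfap1a, a spliceosome protein with a near-identical copy in Mfap1b, was at 5.23, 2.73, 2.96 and 2.62 FPKM, and reads may be split between the copies. Mfap1b itself had ratios of 0.584, 0.668 and 0.893 and did not meet the rule. Other listed genes were within the bound in the 4HC groups and not after IFNβ: U2af1, which binds the 3′ splice site, had ratios of 0.387, 0.351 and 0.788, and Sf1 had 0.576, 0.598 and 1.03. Conversely Clk1 and Clk4, kinases of SR proteins, had 0.871, 0.886 and 0.415 and 0.783, 0.743 and 0.436, with only IFNβ under the bound. Sfpq, at 2.29 times control with IFNβ, was the one gene of the list over 1.67 times control.

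Among 13 further members with roles in RNA processing and translation, Eif1, which helps the ribosome select the start codon, was the most abundant member of all. Eif1 (chromosome 11, 100181309 to 100183410) stood at 566 FPKM in control cells, 293 after 4HC, 256 after 4HC plus antibody and 258 after IFNβ. By counting error, its 4HC ratio was 0.517 (interval 0.511 to 0.524), its antibody ratio 0.453 (interval 0.447 to 0.459) and its IFNβ ratio 0.457 (interval 0.451 to 0.462). After 4HC, 4HC plus antibody and IFNβ, 7.1%, 9.19% and 8.2% of all expressed genes lay within the bound. Among 38 listed initiation factors the numbers were 6, 8 and 1, and Eif1 was the one gene within the bound in all 3. Eif5a, by contrast, had ratios of 0.547, 0.488 and 0.899 and Eif6 of 0.506, 0.429 and 0.823. Cnbp (chromosome 6, 87792608 to 87801100), a zinc finger protein that binds single-stranded nucleic acid and RNA, stood at 251 FPKM in control cells, 109.6 after 4HC, 95.5 after 4HC plus antibody and 149 after IFNβ, and its IFNβ level was 1.36 times (interval 1.34 to 1.38) its 4HC level.

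Ribosome and transfer RNA genes in the group included Sbds, which acts in the release of eIF6 from the large ribosomal subunit, at 49.4, 24.97, 22.4 and 19.9 FPKM in control, 4HC, 4HC with antibody and IFNβ. Crcp, a subunit of RNA polymerase III, was at 35.9, 14.4, 12.7 and 17.6 FPKM, and was the one of 22 expressed genes of that machinery within all 3 bounds. Elp6, a subunit of the Elongator complex that modifies wobble uridines of transfer RNA, was at 8.55, 3.21, 2.59 and 3.80 FPKM, whereas the 5 other expressed Elongator genes had 4HC ratios of 0.841 to 1.01 and IFNβ ratios of 0.734 to 1.23. Crcp and Elp6 were thus single members from their complexes. Esf1 (nucleolar processing of ribosomal RNA), Mettl16 (an RNA methyltransferase acting on U6 and Mat2a RNA), Pnrc2 (mRNA decay), Zcchc7, Trmt13 (a transfer RNA methyltransferase), Rbm12b2 and Dnd1 had ratios of 0.308 to 0.580 in the 3 treated groups. Tnrc6c, a scaffold of the microRNA effector complex, was at 5.76, 2.77, 2.81 and 2.59 FPKM, and none of the other 10 expressed genes of that list met the rule.

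**Figure D2:**
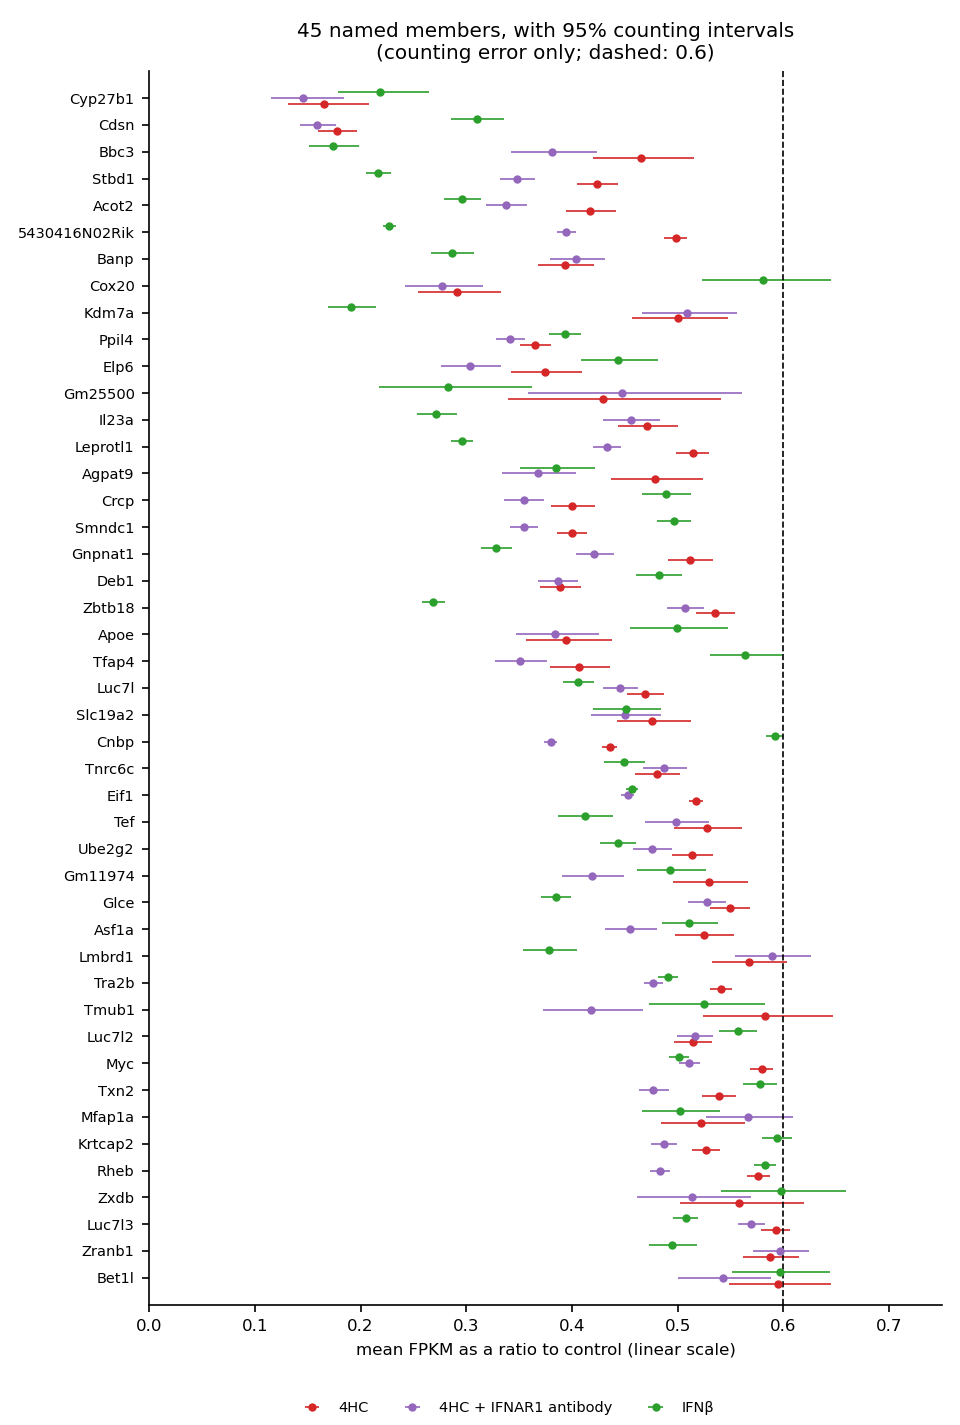
Ratios of mean FPKM to control (x axis, linear) for 45 members named by the rule in the methods, with 4HC in red, 4HC with antibody in purple and IFNβ in green. Bars are 95% counting intervals, which leave out differences between cultures; Cyp27b1, Cdsn and Bbc3 at the top have the lowest mean log2 ratios, and Bet1l at the bottom lies next to the dashed bound of 0.6.

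Transcription factors and chromatin genes made up 15 members. Myc (chromosome 15, 61816895 to 61821916), a growth-promoting factor with a short-lived mRNA, stood at 137 FPKM in control cells, 79.3 after 4HC, 69.9 after 4HC plus antibody and 68.6 after IFNβ. It was the only member among 22 expressed immediate early genes. Atf3, also on this list, met all 3 bounds and was left out by name. Of the 22, 3 lay within the bound in each treated group. Shares of all expressed genes were 7.1% (4HC), 9.19% (antibody) and 8.2% (IFNβ). Over 1.67 times control with 4HC were 6 of the 22. Zbtb18, a zinc finger repressor, was at 20.9 FPKM in control cells, 11.2 after 4HC, 10.6 after 4HC plus antibody and 5.61 after IFNβ, and the IFNβ level was 0.501 times the 4HC level. Tfap4, a basic helix-loop-helix factor, showed the other order at 13.3 FPKM in control cells, 5.41 after 4HC, 4.68 after 4HC plus antibody and 7.51 after IFNβ, with IFNβ at 1.39 times 4HC. Tef, a bZIP factor of the circadian output that binds D-boxes, was at 7.54 FPKM in control cells, 3.97 after 4HC, 3.75 after 4HC plus antibody and 3.11 after IFNβ. Banp, a nuclear DNA-binding protein, was at 6.05 FPKM in control cells, 2.38 after 4HC, 2.45 after 4HC plus antibody and 1.73 after IFNβ.

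Creb1, which binds the cyclic AMP response element, had ratios of 0.587, 0.586 and 0.395, and Crebzf, a bZIP protein, 0.436, 0.396 and 0.440. Asf1a, a chaperone of histones H3 and H4, was at 19.7, 10.3, 8.97 and 10.1 FPKM, and Kdm7a, a demethylase of repressive histone marks, was at 1.64, 0.822, 0.836 and 0.313 FPKM. Those were the 2 members among 25 histone chaperones and demethylases. For Kdm7a the ratio was 0.5001 (interval 0.457 to 0.548) with 4HC and 0.190 (interval 0.169 to 0.214) with IFNβ. Yy2 overlaps Mbtps2, so its reads (4.90, 1.55, 1.10 and 2.57 FPKM) cannot be assigned to it with certainty. Ankrd11, Zbtb21, Zxdb, Zglp1 and Trnp1 had ratios of 0.253 to 0.597.

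Ubiquitin-related members numbered 8. Ube2g2, a ubiquitin-conjugating enzyme of the endoplasmic reticulum degradation pathway, was at 42.3 FPKM in control cells, 21.7 after 4HC, 20.1 after 4HC plus antibody and 18.8 after IFNβ. Among 35 listed ubiquitin genes and E2 enzymes, 7, 9 and 4 genes lay within the bound in the 4HC, antibody and IFNβ groups. The shares of all expressed genes in these groups were 7.1%, 9.19% and 8.2%. Vhl, the substrate receptor that targets hypoxia-inducible factors, had ratios of 0.515, 0.492 and 0.537. Zranb1 (a deubiquitinase), Det1 and Zyg11b (parts of ubiquitin ligases) and Tmub1, a membrane protein with a ubiquitin-like domain, lay between 0.418 and 0.597. The RING finger gene 2310014L17Rik (Rnf225) was at 2.98, 0.382, 0.463 and 0.551 FPKM, the lowest 4HC ratio of all members at 0.128 (interval 0.105 to 0.154).

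Mitochondrial and metabolic members numbered 15 and differed widely in how the treatments were ordered. Stbd1 (chromosome 5, 93032076 to 93035605), which anchors glycogen to membranes, stood at 34.01 FPKM in control cells, 14.4 after 4HC, 11.8 after 4HC plus antibody and 7.36 after IFNβ. Acot2, which releases fatty acids from acyl-CoA in mitochondria, was at 20.7 FPKM in control cells, 8.65 after 4HC, 6.9997 after 4HC plus antibody and 6.13 after IFNβ, and its close paralogue Acot1 may share its reads. Gnpnat1, an acetyltransferase of UDP-GlcNAc synthesis, was at 26.6 FPKM in control cells, 13.6 after 4HC, 11.2 after 4HC plus antibody and 8.73 after IFNβ. All 3 were lowest with IFNβ. Cox20, a chaperone for assembly of cytochrome c oxidase, was the reverse, at 15.1 FPKM in control cells, 4.40 after 4HC, 4.19 after 4HC plus antibody and 8.78 after IFNβ, so that IFNβ lay at 1.99 times (interval 1.75 to 2.28) the 4HC level. Apoe, the lipid transport apolipoprotein, was at 9.91 FPKM in control cells, 3.91 after 4HC, 3.81 after 4HC plus antibody and 4.95 after IFNβ, also lower in both 4HC groups than with IFNβ.

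Cyp27b1, which makes the active form of vitamin D, was low in every treated group at 2.21, 0.365, 0.322 and 0.482 FPKM, 6.04 times lower with 4HC and 4.57 times lower with IFNβ. Agpat9 (Gpat3), the first acyltransferase of glycerolipid synthesis, was at 5.25, 2.51, 1.93 and 2.02 FPKM. Glce, the epimerase that makes iduronic acid in heparan sulfate, was at 21.1, 11.6, 11.1 and 8.12 FPKM. Slc19a2, a thiamine transporter, was at 6.80, 3.23, 3.06 and 3.06 FPKM, and Lmbrd1, which exports cobalamin from lysosomes, at 5.80, 3.29, 3.41 and 2.20 FPKM. By list, members were 1 of 12 expressed heparan sulfate genes, 1 of 10 of UDP-GlcNAc synthesis, 1 of 5 acyl-CoA thioesterases, and 2 each of 13 thiamine and cobalamin genes and of 14 apolipoprotein and acyltransferase genes. These lists were made with the members known, so the shares are not set against the 1.69% of all expressed genes that met all 3 bounds. Txn2, the mitochondrial thioredoxin, was the most abundant of the group at 68.2, 36.8, 32.5 and 39.4 FPKM. Lias (lipoic acid synthesis), Aoc2 and the carbonic anhydrases Car6 and Car15 had ratios of 0.359 to 0.548.

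Signalling, secreted and surface proteins gave 15 members, with a median control level of 2.09 FPKM. Rheb, the GTPase that activates mTORC1, was the most abundant at 79.5 FPKM in control cells, 45.8 after 4HC, 38.4 after 4HC plus antibody and 46.3 after IFNβ. Cdsn (chromosome 17, 35689072 to 35694125), an adhesion protein of cornified epithelium, stood at 8.97 FPKM in control cells, 1.59 after 4HC, 1.43 after 4HC plus antibody and 2.78 after IFNβ. It was 5.64 times lower with 4HC and 3.23 times lower with IFNβ. Il23a, the p19 subunit of interleukin-23, was at 21.1 FPKM in control cells, 9.96 after 4HC, 9.63 after 4HC plus antibody and 5.75 after IFNβ, with IFNβ lowest. Kcnj14, an inward rectifier potassium channel, was at 1.45, 0.195, 0.127 and 0.423 FPKM, which rests on about 40 reads in the antibody group. Artn (a ligand of the GDNF family), Acvr2b (an activin receptor), Ptpru (a receptor phosphatase), Lrig2, Paqr3, Marveld3, Masp2, Col11a2, Gzmm, Hhipl1 and Trpc2 had ratios of 0.224 to 0.573.

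Another 5 members act in survival, stress or DNA repair. Bbc3 (chromosome 7, 16894931 to 16903683), which encodes the BH3-only killer protein PUMA, stood at 7.09 FPKM in control cells, 3.30 after 4HC, 2.70 after 4HC plus antibody and 1.23 after IFNβ. Its IFNβ level was 0.373 times (interval 0.323 to 0.429) its 4HC level, the lowest such ratio of all members. Of 13 expressed BCL2 family genes Bbc3 was the only one within all 3 bounds, and Bid, Bad and Bcl2l1 had 4HC ratios of 1.65, 1.60 and 1.68. Hspb8, a small heat shock protein, was at 33.8, 17.3, 15.2 and 19.3 FPKM, and Alkbh2, which repairs alkylated DNA bases directly, at 10.2, 5.86, 4.85 and 5.49 FPKM. Exd2, an exonuclease of break repair, and Tti2, which stabilises DNA damage kinases, had ratios of 0.453 to 0.571.

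Secretory and membrane traffic genes gave 9 members. Krtcap2, a subunit of oligosaccharyltransferase, was at 158 FPKM in control cells, 83.1 after 4HC, 76.9 after 4HC plus antibody and 93.8 after IFNβ. Leprotl1, a membrane protein of endosomes and Golgi, was at 46.4 FPKM in control cells, 23.9 after 4HC, 20.1 after 4HC plus antibody and 13.7 after IFNβ, with IFNβ at 0.575 times the 4HC level. Ccdc47, an endoplasmic reticulum membrane protein, was at 59.5, 30.5, 31.02 and 24.6 FPKM. Arf2, Bet1l (a Golgi SNARE), Commd6, Dennd4a, Rabl3 and Tbc1d12 had ratios of 0.333 to 0.596. Among 8 noncoding RNAs and pseudogenes, the long intergenic RNA 5430416N02Rik (chromosome 5, 100849860 to 100858554) was the most abundant at 76.1 FPKM in control cells, 37.9 after 4HC, 30.05 after 4HC plus antibody and 17.3 after IFNβ. Gm11974, the snoRNA host Snhg15 whose promoter is printed above, was at 40.9 FPKM in control cells, 21.6 after 4HC, 17.1 after 4HC plus antibody and 20.2 after IFNβ. Gm25500 (21.8, 9.36, 9.77 and 6.16 FPKM) is annotated as a snoRNA and overlaps Taf1d, so its reads cannot be assigned to it with certainty.

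The remaining noncoding members were 2410004N09Rik (Epb41l4aos), 2610306M01Rik, E230016M11Rik, Rps15a-ps4 and Gm8801, and the last 2 are pseudogenes whose reads may come from their parent genes. Members given no role were Deb1 (Ss18l2), Pithd1, Ccdc137, LOC106740, Trim46, Fam171b, AA987161, Fam120c, C030006K11Rik, Tigd3 and 1700029I15Rik. Deb1 was at 25.4 FPKM in control cells, 9.85 after 4HC, 9.80 after 4HC plus antibody and 12.2 after IFNβ. Fam171b, at 3.998, 1.03, 0.955 and 1.07 FPKM, was the member closest to an equal level in all treated groups among the 6 lowest. The ratios of these 16 genes ran from 0.213 to 0.585.

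The rule required a low level with the antibody as well, so a gene that stood near control once IFNAR1 was blocked could not be a member, and the values below do not address dependence on the receptor. With the antibody, 79 of 106 members (74.5%) were lower than with 4HC alone. The share was 57.7% of all expressed genes and 71.0% of the 697 genes within the 4HC bound. The bound on the antibody group itself favours lower levels there. Without that bound 111 genes meet the rule, and 79 of them (71.2%) were lower with the antibody. The median log2 ratio of antibody to 4HC was -0.12 over members, -0.09 over those 697 genes and -0.02 over all genes. The antibody level was within 1.25 times of the 4HC level in 95 members (89.6%), beside 95.6% of all expressed genes. It was over 1.5 times lower in 1 member, Kcnj14 (0.943%, beside 1.17%). It was over 1.5 times higher in 0, beside 0.53% of all expressed genes and 41 of the 697 within the 4HC bound. The expressed genes and the 697 genes include the names that the rule leaves out of the members.

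Counting intervals of the antibody to 4HC ratio lay below 1 in 51 of 104 members, above 1 in 1 and included 1 in 52. Mfap1a was the one above, at 1.08 (interval 1.005 to 1.17). Such intervals were computed for members only, so these counts have no share over all expressed genes beside them. The largest differences among members at 5 FPKM or more in control were in Tmub1, where the antibody level was 0.718 times the 4HC level (interval 0.639 to 0.804), and in Agpat9, at 0.768 times. Next came Gm11974, 5430416N02Rik, Elp6 and Acot2, at 0.791, 0.792, 0.809 and 0.809 times. All 6 were lower with the antibody. Of the 3 treated groups, the lowest level was in the antibody group for 50 members, in IFNβ for 45 and in 4HC alone for 11. This was counted for members only, and 57.7% of all expressed genes were lower with the antibody than with 4HC alone.

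**Figure D3:**
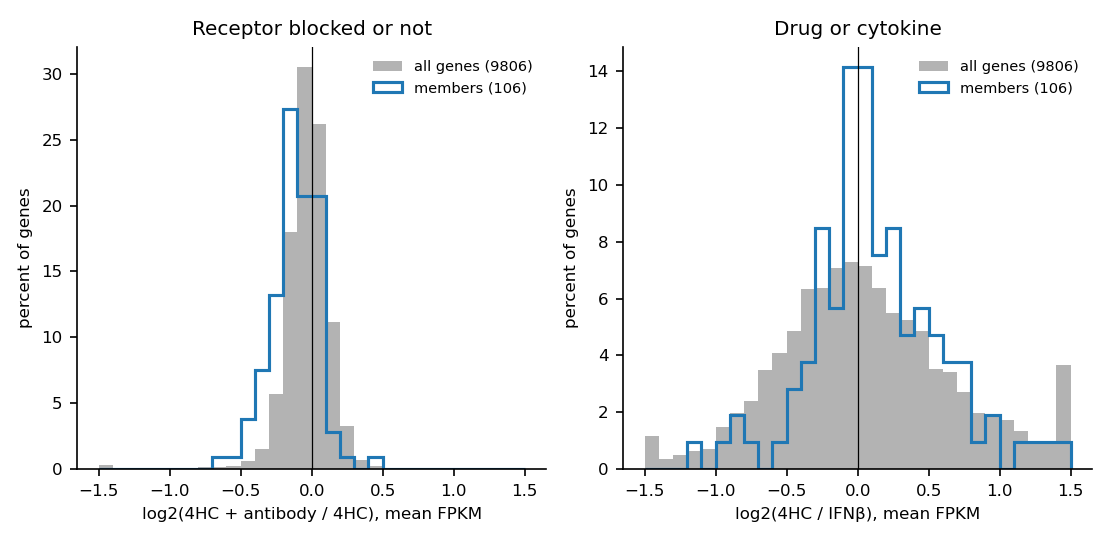
Percent of genes (y axis) by log2 ratio of mean FPKM between treated groups, for 4HC with antibody over 4HC on the left and 4HC over IFNβ on the right, in bins of 0.1 with values beyond 1.5 placed in the end bins. Members (blue line, 106) have a median of -0.12 on the left and 0.05 on the right, beside -0.02 and 0.02 for all genes (grey).

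Between the drug and the cytokine, IFNβ was lower than 4HC in 63 of 106 (59.4%), beside 51.2% of all expressed genes, and the median log2 ratio of 4HC to IFNβ was 0.05 over members and 0.02 over all genes. The 2 groups also differ in time after exposure and since fresh medium, 68 h against 2 h, and in seeding density. Agent, time, medium and density cannot be told apart. IFNβ was over 1.5 times lower in 15 members (14.2%), beside 19.04% of all expressed genes: Bbc3, Kdm7a, Trim46, 5430416N02Rik, Zbtb18, Stbd1, Gzmm, Leprotl1, Il23a, Lrig2, Col11a2, LOC106740, Fam120c, Gnpnat1 and Gm25500. It was over 1.5 times higher in 5 (4.72%, beside 13.2%), which were Kcnj14, Cox20, Trnp1, Cdsn and Yy2. Among members at 5 FPKM or more, log2 of 4HC over IFNβ ran from -0.996 for Cox20 to 1.42 for Bbc3. By counting error alone, the interval of the IFNβ to 4HC ratio lay below 1 in 42 of 104 members, above 1 in 23, and included 1 in 39. These intervals too were computed for members only, with no share over all expressed genes. By role, 10 of 15 metabolic and 10 of 15 transcription and chromatin members were lower with IFNβ, as were 6 of 8 ubiquitin, 4 of 7 splicing and 2 of 5 survival and repair members.

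In the pathways that the members come from, the 3 groups differed in how many genes lay within the bound. The IFNβ group also differed from the 4HC groups in time, medium and seeding density, as given above. Of all expressed genes, 7.1% were within it after 4HC, 9.19% after 4HC plus antibody and 8.2% after IFNβ. Of 30 expressed integrated stress response genes, 6 were within the bound after 4HC, 9 after 4HC plus antibody and 23 after IFNβ, and 5 met all 3. Stbd1 is the one of these 5 among the members, and Atf3, Atf4, Trib3 and Ppp1r15a were left out by name. Atf4, the transcription factor at the centre of this response, had ratios of 0.585, 0.521 and 0.311, Trib3 0.410, 0.325 and 0.119 and Ppp1r15a 0.455, 0.369 and 0.102. In each the IFNβ level was the lowest. Chac1 and Ddit3, which are not members, had ratios of 0.788, 0.697 and 0.0986 and 0.693, 0.552 and 0.138. The list's median log2 ratio to control was -0.35 after 4HC, -0.52 after 4HC plus antibody and -1.49 after IFNβ.

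In the circadian clock list IFNβ also had the most genes within the bound. Of 17 expressed clock genes, 4 were within the bound after 4HC, 4 after 4HC plus antibody and 11 after IFNβ, and 3 met all 3: Tef, Per2 and Ciart. Ciart, a repressor of the clock, was at 27.5 FPKM in control cells, 11.6 after 4HC, 8.77 after 4HC plus antibody and 4.07 after IFNβ, and Per2 at 1.46, 0.423, 0.452 and 0.253 FPKM. Nr1d1, a clock repressor that is not a member, had ratios of 0.832, 0.941 and 0.274, and Arntl, the activator that drives it, 1.54, 1.56 and 0.315. Lists with fewer genes within the bound after IFNβ than after 4HC included translation initiation factors (1 against 6 of 38) and ubiquitin genes and E2 enzymes (4 against 7 of 35). Over all expressed genes the shares were 8.2% after IFNβ and 7.1% after 4HC, and the differences were not tested. The names on these lists were chosen with earlier results known.

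**Figure D4:**
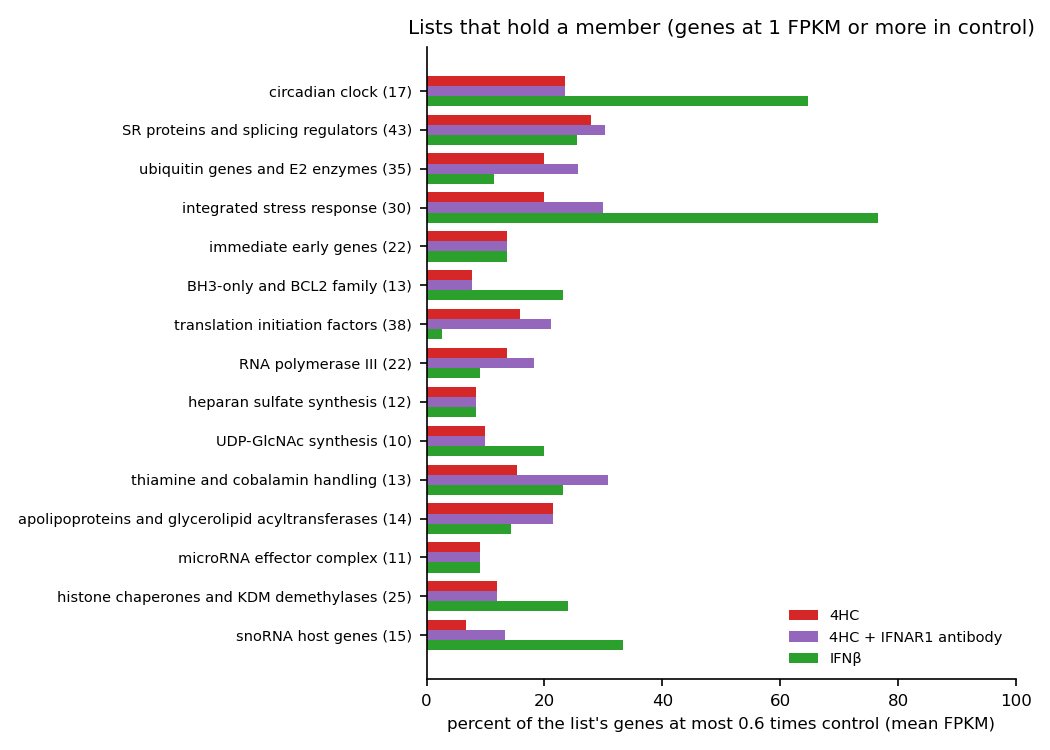
Percent of each list's genes at or below 0.6 times control (x axis) for the 15 lists that hold a member and at least 10 genes at 1 FPKM or more in control, whose number stands in brackets. The IFNβ bars (green) are longest for the integrated stress response (23 of 30) and the circadian clock (11 of 17), and the 3 bars are close for splicing regulators (12, 13 and 11 of 43).

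RN45S, the precursor of ribosomal RNA, which has no poly(A) tail, was at 1038 FPKM in control cells, 299.9 after 4HC, 284 after 4HC plus antibody and 338 after IFNβ and was left out by name. It was thus lower in the same groups as the members, and its part in their levels was not tested. Over genes above 0 in both groups, the mean log2 ratio to control with 30% trimmed at each end was 0.23 after 4HC, 0.22 after 4HC plus antibody and 0.02 after IFNβ. Relative to these shifts 216 genes meet the rule, and all 106 members are among them. The shifts are all above 0, so every ratio falls relative to them and no member could drop out.

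The rule did not use transcript sequence. The 3′ untranslated region (UTR) of the longest coding transcript, from GENCODE M21, was found for 96 members and had a median length of 1246 bases, beside 1215 over all expressed genes. AU-rich pentamers ATTTA, which can shorten the life of an mRNA, had a median of 1.31 per kilobase in members and 1.32 in all genes, and 72.9% against 70.7% of UTRs held at least 1. The nonamer TTATTTATT was in 7 members (7.29%), beside 8.27% of all. For 4 of these 7, Il23a, Vhl, Zranb1 and Mettl16, the first nonamer is shown with up to 10 bases on each side, the nonamer in capitals, since it marks the members with the longer AU-rich match.
Il23a: tagatgatggTTATTTATTctatttataa
Vhl: gtataattttTTATTTATTtttaatcccc
Zranb1: tgtatttataTTATTTATTtatttattta
Mettl16: tttaaaagatTTATTTATTtattatatga
A match is a description of the letters and says nothing of decay in these cells.

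Genomic spans of members, in the table's mm9 coordinates, had a median of 11.95 kb. The median was 20.02 kb for all expressed genes and 7.68 kb for the 697 genes within the 4HC bound. Both of these sets keep the short rows named as microRNA and snoRNA, which the rule leaves out of the members. Members lay on all chromosomes but Y, with 12 on chromosome 5 (11.3% of members, beside 6.61% of expressed genes) and 11 on chromosome 4 (10.4% beside 6.31%). Within 250 kb of each other lay Trim46 and Krtcap2 (1.42 kb apart), Pnrc2 and Pithd1 (101.8 kb) and Crcp and Sbds (184.9 kb). Spans of 16 members overlap another row, among them E230016M11Rik with Gadd45a, Gnpnat1 with Styx, Asf1a with Mcm9, Tti2 with Mak16 and Trpc2 with Xntrpc, and whether counting used the strand is not given in the sources used here. Without those 16 the median log2 ratios to control were -0.997, -1.12 and -1.14.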

How the data were processed

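Poly(A)-selected, strand-specific RNA libraries from 4T1 cultures (2 control, 3 per treated group) were sequenced by the authors. Per the labels, the authors mapped reads to mm9 with TopHat2, counted them with featureCounts and compared groups with edgeR, with versions not given in the sources used here. The deposited FPKM values are the authors' means over the libraries of a group. The deposited ratios, fold changes and p-values between pairs of groups are the authors' own comparisons and were not used.

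Ratios of mean FPKM were computed with pandas 2.3.3 in Python 3.11.15, without a pseudocount. No test was run, as the table gives no value per library. Depths came from olfactory receptor genes of up to 1100 bases, where the lowest step is 1 read. Read numbers used the longest GENCODE M21 transcript, so they are approximate, and intervals (scipy 1.17.1) cover counting error only and were tested on simulated data. Symbols were matched to reference names for 104 of 106 members (5 as older names) and 24062 of 24197 rows.

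Members, roles and lists were chosen with earlier results of these data known, so no list is independent evidence. Genes were named as follows: the 10 lowest mean log2 ratios, the 6 largest absolute antibody to 4HC ratios and the 6 highest and 6 lowest 4HC to IFNβ ratios (all at 5 FPKM or more in control), the 8 highest control levels, members on a list, and 3 genes on each side of the bound. Other genes were named after their values were seen. A member that the rule names is not reported here. The 23 lists are those named in the report with their counts, and vitamin D and A handling (1 member of 3 expressed genes, Cyp27b1), interleukin-12 family and receptors (1 of 2, Il23a) and snoRNA host genes (1 of 15, Gm11974). The member 2410004N09Rik (Epb41l4aos) is also on the last list under another spelling, so it was not matched and is missing from that count. Alternatives were other bounds, control minimums, scalings, a pseudocount, names kept, the antibody group not required, and overlapping rows left out.

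Promoter motifs, searched on both strands, were CRE TGACGTCA, C/EBP-ATF response element TGATGCAA, E-box CACGTG, D-box TTATGTAA, ISRE core GAAANNGAA, TATA box TATAAA, NF-Y CCAAT, ETS CCGGAAGT, NRF1 TGCGCATGC, SP1 GGGCGG (not capitalised) and YY1 AAGATGGCG.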

Additional observations from a re-analysis of the deposited data

How the results depend on the processing

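None of the 69 values computed under alternatives changed sign, but for most of them this was fixed in advance. The rule keeps median ratios to control below 0, and counts and GC percent have no sign to change. Only the medians of antibody to 4HC and of 4HC to IFNβ could have changed sign. Of the 69 values, 50 stayed within 0.1 on the log2 scale, or within 1.5 times for a count, and 19 moved. The median log2 ratio of antibody to 4HC stayed below 0, from -0.15 to -0.08, and that of 4HC to IFNβ stayed above 0, from 0.0012 with a bound of 0.5 to 0.0996 with a control minimum of 5 FPKM. From 106, the number of members was 40 with a bound of 0.5, 341 with a bound of 0.7, 68 with a control minimum of 5 FPKM, 166 with no names left out and 216 relative to the trimmed mean ratio. All 106 stayed within the larger sets, which these settings fix in advance. Members lower with IFNβ than with 4HC numbered 63, and 20, 184 and 114 with bounds of 0.5 and 0.7 and the trimmed mean. The median log2 ratio of 4HC to control was -0.997, and -1.31 and -0.78 with these bounds, -1.11 with no names left out and -0.89 with a pseudocount of 0.5 FPKM. For 4HC with antibody it was -1.14, and -1.48, -0.86 and, with the pseudocount, -1.01. For IFNβ it was -1.15, and -1.45 and -0.80 with the bounds, -0.996 with the pseudocount and -1.04 relative to the trimmed mean. The bounds and the control minimum change the set by construction, and for the other settings the cause was not tested. The trimmed mean scaling and the removal of 16 overlapping rows were chosen after seeing the data. No paired analysis was possible because the table holds group means only, and leaving out single libraries was not run for the same reason.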
